A study of Homo sapiens with 27 samples.

Results

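Transcripts annotated as targets of nonsense-mediated decay (NMD) were examined in RM82 cells, a human Ewing sarcoma line, after 24 h with the CLK1 splicing kinase inhibitor SGC-CLK-1 or with its solvent DMSO, in 3 libraries each. A transcript was included where the GENCODE 44 annotation gives it the class nonsense_mediated_decay and its counts over the 6 libraries summed to 20 or more. The set was thus chosen by measured counts and held 1894 transcripts from 1424 genes, of the 9332 NMD-class transcripts and 93530 transcripts listed in the 6 libraries. Each was paired with the most counted protein_coding transcript of its gene, its coding partner, which 1804 of the 1894 had. The choice used the counts of both groups together and not their difference. The labels name the treated group after CLK1 and give no dose. The study describes its experiments in general as independently replicated, but the labels do not tie these libraries to separate cultures, so p-values measure the spread between the libraries, part of which may be technical.

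Counts were deduplicated molecules per transcript from Nanopore reads of cDNA. With SGC-CLK-1 the 3 libraries had totals of 666702, 362826 and 373004, and with DMSO 416352, 523456 and 372876, and values below follow this order of replicates. Of 15 Ewing sarcoma markers, 13 had counts, led by STEAP2 with 3646, while NKX2-2 and FLI1 were at 0. The marker counts summed to 1892, 1087 and 1249 in the SGC-CLK-1 libraries and to 1418, 1597 and 1289 in the DMSO libraries. Of 12 plasma cell markers, 9 were at 0, and CD38 held 199 of the list's counts, which summed to 45, 28, 30, 33, 46 and 22 in the same order of libraries. The 8 fibroblast markers summed to 51, 28, 40, 17, 39 and 29, of which DCN gave 147 and POSTN gave 0.

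NMD removes mRNAs in which translation stops too early. In mammalian cells the usual signal is an exon-junction complex left on the mRNA downstream of the ribosome that reaches the stop codon, which recruits the UPF and SMG proteins. Alternative splicing can create such a stop by skipping or including an exon, and SR proteins, the substrates of CLK kinases, regulate their own mRNAs in this way.

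The included transcripts had the gene structure that defines the class, although 250 are annotated with their start not found, among them HSP90AA1 ENST00000554401, so that their reading frames may be incomplete. The stop codon lay more than 50 bases upstream of the last exon junction in 1893 of the 1894, at a median distance of 673 bases, and exactly 50 bases upstream in the other one. They had a median of 11 exons and 2383.5 bases, and 1304 of the 1804 with a partner were shorter than it. In 843 pairs the stop codon lay in sequence that the partner lacks, in 826 it lay in sequence that the partner also contains but where the partner does not end its frame, and in 113 both transcripts used the same stop codon. For the remaining 22, the annotation gives the partner no stop codon.

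The sequences below are the last coding bases of 6 transcripts on which the results turn, read 5′ to 3′ from the GENCODE 44 transcripts on GRCh38, with the stop codon in capitals. They show how each reading frame ends. For CLK1 ENST00000432425 the partner is shown over the same 3 bases, which there are not a stop codon because the frame differs.
HSP90AA1 ENST00000554401: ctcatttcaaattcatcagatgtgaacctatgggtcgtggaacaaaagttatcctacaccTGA
SMC4 ENST00000469858: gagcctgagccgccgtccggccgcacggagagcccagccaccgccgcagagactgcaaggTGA
RIMKLB ENST00000544257: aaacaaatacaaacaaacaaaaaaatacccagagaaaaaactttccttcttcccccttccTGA
CLK1 ENST00000432425: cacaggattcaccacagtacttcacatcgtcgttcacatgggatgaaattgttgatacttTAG
CLK1 ENST00000321356 (partner): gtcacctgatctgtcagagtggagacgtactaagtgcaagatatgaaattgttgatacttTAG
CLK1 ENST00000409403: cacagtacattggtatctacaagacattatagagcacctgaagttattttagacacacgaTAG
RBM25 ENST00000528081: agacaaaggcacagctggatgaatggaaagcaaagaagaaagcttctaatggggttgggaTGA

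The NMD transcript of HSP90AA1 leaves out 1 partner exon of 367 bases, and its stop codon at chr14:102085390-102085392 (minus strand) lies in exon 2 of 7. In SMC4, 2 skipped exons of 369 bases in all are followed by a stop codon at chr3:160411922-160411924 (plus strand), 2 bases after the new junction. These stop bases lie out of frame in the partner, although the skipped length is a whole number of codons. What else changes the frame was not examined. The EPB41 transcript instead has its stop codon in sequence that the partner lacks. The first CLK1 transcript skips an exon of 91 bases and stops at chr2:200859726-200859728 (minus strand), after 136 codons where the partner has 484. The second skips an exon of 83 bases and stops at chr2:200854685-200854687, after 355 codons. RBM25 skips an exon of 58 bases and takes up one of 105 bases, and stops at chr14:73088377-73088379 (plus strand), 1991 bases before its last junction. The stop codon of RIMKLB at chr12:8777668-8777670 (plus strand) lies in sequence that its partner lacks.

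The 1894 transcripts held 154878 counts, 80.9% of all counts on the NMD class. Their summed counts had a median of 42 and reached 2916. At the threshold, 76 transcripts had a summed count of exactly 20 and 83 NMD-class transcripts had 19. PDGFC ENST00000274071, just inside, had 4, 5 and 2 counts with SGC-CLK-1 and 2, 1 and 6 with DMSO, and SCFD1 ENST00000311943, just outside, had 2, 3, 1, 2, 9 and 2 in that order.

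Of the 5 transcripts with the most counts, those of ACTB and TUBA1B were close to their coding partners in number. ACTB ENST00000425660, of cytoplasmic beta-actin, had the most, 2916 over the 6 libraries. Its count was 99.7%, 99% and 100.5% of that of its partner ENST00000646664 with SGC-CLK-1 and 99.5%, 99.5% and 99.2% with DMSO, so the 2 were near equal in every library. TUBA1B ENST00000547765, of an alpha-tubulin, made up between 89.5% and 94.2% of its partner's count in the 6 libraries. For YWHAE ENST00000466227, of the 14-3-3 epsilon adaptor, the share ran from 49.1% to 70.6%. CYP46A1 ENST00000554611, of a cholesterol hydroxylase, had 1730 counts and no listed coding partner, and MIPOL1 ENST00000555870 had 1571 counts beside 12 for its partner. None of these 5 passed the transcript test described next (edgeR adjusted p between 0.143 for YWHAE and 0.852 for ACTB).

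Over the whole set, the count of an included transcript was a median of 71% of its partner's, it exceeded the partner's in 275 pairs, and in 16 pairs the 2 transcripts had the same count in every library. Over the 497 pairs tested below, the chi-square of the 2 transcripts' counts over the 6 libraries had a median of 0.247 per degree of freedom, where separately counted molecules at a constant ratio give about 1. Over all 3673 pairs of a transcript of any class with a coding partner it was 0.221. Of the 1894, 1414 shared at least 200 of their last 500 bases with their own partner at 95% identity or more, and 250 shared them with a transcript of another gene. Among the 250 is TUBA1B ENST00000547765, whose end is shared with TUBA1A. The authors' alignment step kept secondary alignments, so a molecule can count for more than 1 transcript, and how many did was not tested.

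To ask which transcripts changed with SGC-CLK-1, all transcripts past a filter on low counts were tested by edgeR's quasi-likelihood method and p-values were adjusted over all of them after Benjamini and Hochberg. Of 7840 transcripts tested, 310 (3.95%) passed an adjusted p of 0.05, 1.85% higher and 2.1% lower with SGC-CLK-1. The filter kept 568 of the 1894 NMD transcripts, and 20 of these, from 18 genes, were called, 10 higher and 10 lower. That is 3.52% of the 568, close to the share among all transcripts. Of the 10 higher, 9 had no DMSO library at 25.2 CPM, which the filter's minimum of 10 counts comes to at the median scaled library size, so they entered the test only through the group where they were high, and 1 of the 10 lower did so through DMSO. None of the 10 higher had 10 counts in every library or was given an adjusted p by DESeq2, so these calls rest on edgeR alone. The median log2 fold change was 0.05 over the 568 and -0.01 over all 7840. At an unadjusted p under 0.05 there were 93 of the 568 (16.4%) and 18% of all transcripts tested. Of the whole set of 1894, 344 (18.2%) had groups that did not overlap in CPM (counts relative to the TMM-scaled library total), 188 higher and 156 lower, beside 18.9% of all transcripts with a summed count of 20 or more. Of the 20 called transcripts, those of HSP90AA1, SMC4, MCM4 and both of ATAD2 kept the call when any 1 library was left out, and the other 15 lost it in at least 1 of these 6 fits, with the sign kept. The MCM4 and ATAD2 transcripts are among the 9 that entered the test only through SGC-CLK-1, so their kept calls are no measure of stability.

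**Figure D1:**
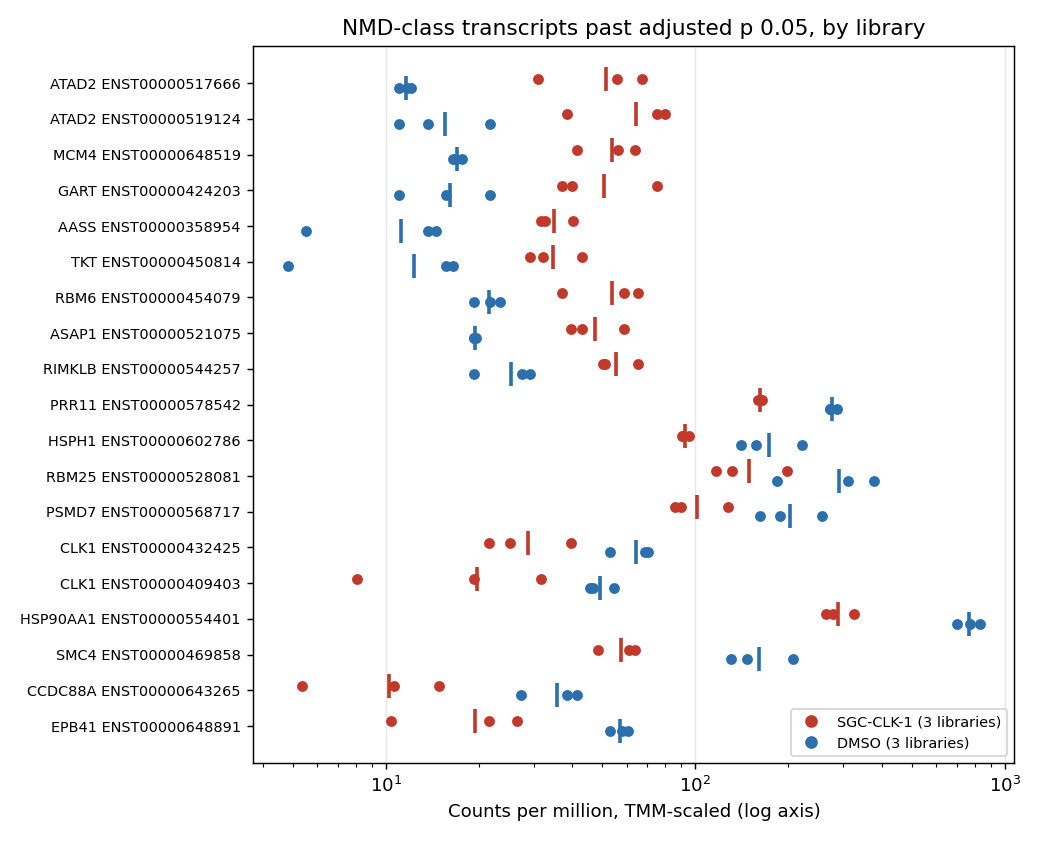
CPM (TMM-scaled, log axis) of 19 of the 20 NMD-class transcripts past adjusted p 0.05, with 1 point per library and a bar at each group mean. The 9 transcripts at the top were higher with SGC-CLK-1 and the 10 at the bottom lower, and in RBM25 the groups overlapped.

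HSP90AA1 and HSPH1 each had a lower NMD transcript. HSP90AA1 encodes the stress-inducible form of the chaperone HSP90, and its NMD transcript ENST00000554401 (chr14:102082665-102086331, minus strand) had 265, 279 and 326 CPM with SGC-CLK-1 and 701, 773 and 831 with DMSO. The log2 fold change was -1.35 (SE 0.19, adjusted p = 9.57e-05 by edgeR). The coding partner fell as well, by 0.94 on the log2 scale (adjusted p = 0.00567). In HSPH1, which encodes an HSP110 co-chaperone, ENST00000602786 had 90.3, 91.2 and 95.4 CPM against 157, 221 and 140. The difference was -0.86 (SE 0.24, adjusted p = 0.034) and that of the partner -0.92 (adjusted p = 0.0216). The HSPH1 call was lost in 5 of the 6 fits that leave out 1 library.

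SMC4, a core subunit of condensin, had a lower NMD transcript ENST00000469858 (chr3:160399651-160424947, plus strand). It stood at 63.7, 48.3 and 61 CPM with SGC-CLK-1 and at 130, 146 and 206 with DMSO, with a log2 fold change of -1.39 (SE 0.25, adjusted p = 0.00183 by edgeR). All 3 treated libraries lay below all 3 controls, as they did for the partner (-0.78, adjusted p = 0.0276). Of the other genes with a lower NMD transcript, PSMD7 encodes a subunit of the proteasome lid, PRR11 a proline-rich protein of the cell cycle and CCDC88A the actin-binding protein girdin. Their log2 fold changes were -0.90, -0.71 and -1.58, in that order (adjusted p = 0.0292, 0.0413 and 0.0344 by edgeR). The call for PRR11 was lost in all 6 fits that leave out 1 library, and those for PSMD7 and CCDC88A in 4 each. Without DMSO replicate 1 the CCDC88A transcript was below the filter and not tested, so it kept the call only without DMSO replicate 2. The partners of PSMD7 and PRR11 were also called lower, and that of CCDC88A was not (-0.68, adjusted p = 0.26).

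EPB41, which encodes the membrane skeleton protein 4.1R, differed from these. Its NMD transcript ENST00000648891 (chr1:28914572-29065616, plus strand) had 7, 8 and 10 counts with SGC-CLK-1 and 22, 31 and 21 with DMSO, that is 10.4, 21.5 and 26.5 CPM against 53, 60.6 and 57.8. The log2 fold change was -1.60 (SE 0.36, adjusted p = 0.0109 by edgeR). The coding partner had 31, 21 and 23 counts against 14, 22 and 10, with a log2 fold change of 0.65 that did not pass the test (adjusted p = 0.269). The call was lost without SGC-CLK-1 replicate 1 (-1.17, adjusted p = 0.0936) and kept without any other library. The 2 transcripts end 54425 bases apart on the genome.

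ATAD2 and MCM4 were among the genes with higher NMD transcripts. ATAD2, a chromatin ATPase with a bromodomain, had 2 of them. ENST00000517666 had 31.1, 67 and 55.7 CPM with SGC-CLK-1 and 12.1, 11.7 and 11 with DMSO (log2 fold change 2.10, SE 0.42, adjusted p = 0.00448 by edgeR), and ENST00000519124 had a log2 fold change of 2.02 (SE 0.39, adjusted p = 0.00346). Both share the partner ENST00000287394, which was higher by 1.87 (adjusted p = 0.00541). MCM4 ENST00000648519, of a subunit of the replicative helicase, had 41.5, 56.3 and 63.6 CPM against 16.9, 17.6 and 16.5, a log2 fold change of 1.66 (SE 0.36, adjusted p = 0.00843), with its partner at 0.98 (adjusted p = 0.0174). In each of these NMD transcripts the groups were apart, although counts were low, with 4 to 9 molecules per DMSO library. They entered the test only through SGC-CLK-1, so the filter favoured this separation and it is no support for the calls.

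The higher transcripts of 6 further genes lay between 1.20 and 1.64 in log2 fold change. GART, a purine synthesis enzyme, had ENST00000424203 at a log2 fold change of 1.64. AASS, of lysine breakdown, had ENST00000358954 at 1.61 and TKT, the transketolase of the pentose phosphate pathway, ENST00000450814 at 1.57. RBM6, an RNA-binding protein, had ENST00000454079 at 1.39 and ASAP1, a GTPase-activating protein for Arf, ENST00000521075 at 1.31. Their adjusted p-values lay between 0.0162 for GART and 0.034 for TKT by edgeR. These transcripts too entered the test only through SGC-CLK-1. Of the 6 fits that leave out 1 library, the call was lost in 6 for ASAP1, 5 for AASS, 4 for TKT, 3 for RBM6 and 1 for GART. RIMKLB encodes an enzyme that joins glutamate to N-acetylaspartate, and its ENST00000544257 (chr12:8681691-8783095, plus strand) had 65.2, 51 and 50.4 CPM against 19.3, 29.3 and 27.5. The log2 fold change was 1.20 (SE 0.32, adjusted p = 0.0313), while the partner stood at -0.05 (adjusted p = 0.955). The call for RIMKLB was kept without DMSO replicate 2 and lost in the other 5 fits, where the adjusted p lay between 0.0524 and 0.149.

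Among the 20 called transcripts, 19 had a partner that was also tested, that of RBM6 being the exception. The partner's fold change had the same sign in 17 of the 19, all but EPB41 and RIMKLB, and for 10 of the 17 the partner was itself called. Over all 497 NMD transcripts tested with a partner, the fold changes of the pair had Pearson's r = 0.791, given as a description because the pairs share libraries and in part sequence. The same test run on the coding partners of the included transcripts called 26 of 737, 11 higher and 15 lower. Among all transcripts tested, 3.95% were called, 1.85% higher and 2.1% lower.

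**Figure D2:**
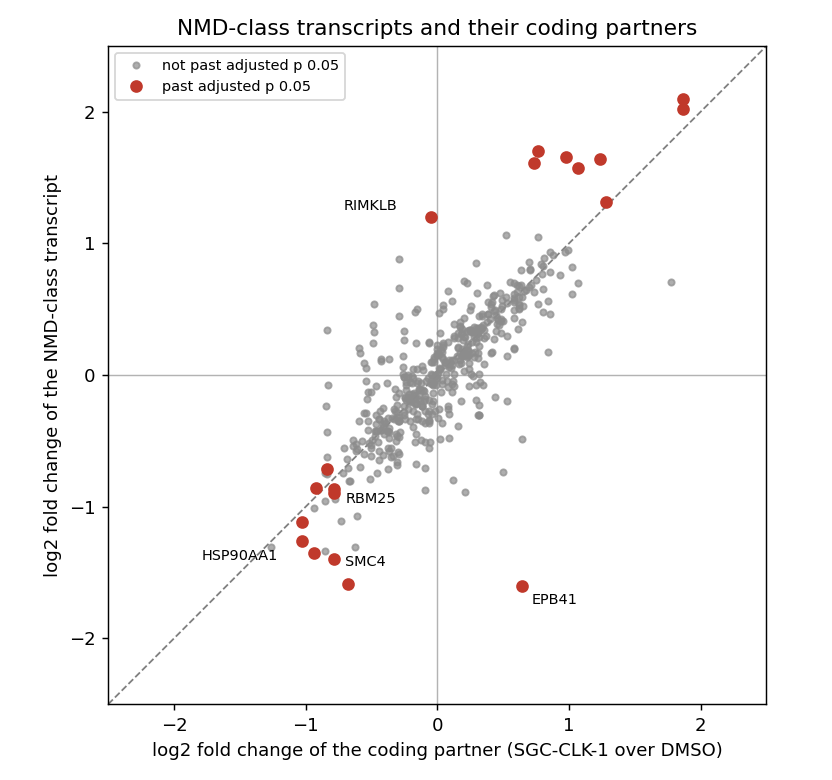
Log2 fold change of each of 497 NMD-class transcripts (vertical) against that of its coding partner (horizontal), SGC-CLK-1 over DMSO, with the dashed line marking equal change. Most points lie near the line, EPB41 sits at 0.65 and -1.60 and RIMKLB at -0.05 and 1.20.

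The second question was whether the NMD transcript changed relative to its coding partner. The log2 ratio of the 2 counts in each library was compared with limma over all 3673 pairs of a tested transcript with a tested partner. No pair passed an adjusted p of 0.05 (0%), and 379 (10.3%) had an unadjusted p under 0.05. The same held for the 497 NMD pairs, of which 45 (9.05%) had an unadjusted p under 0.05, 25 with a higher and 20 with a lower ratio. The median change of the log2 ratio was 0.00011 over the NMD pairs and -0.0031 over all pairs, and 444 of the 497 (89.3%) changed by less than 0.5. The smallest adjusted p of an NMD pair was 0.12. On simulated counts the same test recovered 87% of 200 transcripts changed by a fold of 4 among 3673 pairs. The 5th and 95th percentiles of the observed NMD ratio changes were -0.52 and 0.50 on the log2 scale. The simulation therefore does not say how often changes of the usual size would be found. It also drew the counts of the 2 transcripts of a pair separately. The observed NMD pairs ran closer together, with a median chi-square of 0.247 per degree of freedom. The 87% is thus no measure of what the test would find in these pairs.

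A test of each transcript against all tested transcripts of its gene (diffSpliceDGE in edgeR) called 6 of 5531 transcripts (0.108%), among them 1 of the 504 NMD transcripts it included. This was EPB41 ENST00000648891 (adjusted p = 0.0356). Its count relative to the partner was 22.6%, 38.1% and 43.5% with SGC-CLK-1 and 157%, 141% and 210% with DMSO, so it outnumbered the partner in every DMSO library and in no treated one. The log2 ratio changed by -2.04 (SE 0.25, unadjusted p = 0.000311, adjusted p = 0.12 by limma). An exact permutation test of this ratio gave p = 0.1, the smallest that 3 libraries against 3 allow.

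The 5 NMD pairs at the smallest adjusted p included 3 of the called transcripts, EPB41, HSP90AA1 and SMC4. The HSP90AA1 NMD transcript made up 37.3%, 32.7% and 33.3% of its partner's count with SGC-CLK-1 and 45.6%, 46.1% and 45% with DMSO, a ratio change of -0.40 (SE 0.05, adjusted p = 0.12 by limma). For SMC4 the shares were 30.1%, 26.5% and 26.7% against 43.2%, 39.3% and 46.3%, a ratio change of -0.57 (SE 0.08). In both, every treated library lay below every control. The other 2 of the 5 were chosen after their values were seen. EPB41 ENST00000646800 changed by -0.98 in its ratio to the same partner, and RPS15A ENST00000576008, of a small-subunit ribosomal protein, by 1.14. RPS15A ENST00000576008 had 52, 39 and 41 counts against 21, 20 and 27, without passing the transcript test (adjusted p = 0.0668 by edgeR).

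The shares of the other called transcripts also ran in both directions without an adjusted call. RIMKLB ENST00000544257 stood at 152%, 106% and 146% of its partner with SGC-CLK-1 and 42.1%, 78.9% and 50% with DMSO (ratio change 1.12, SE 0.24, adjusted p = 0.291 by limma). MCM4 ENST00000648519 stood at 31.8%, 38.9% and 35.3% against 22.6%, 23.1% and 18.8%. In both the groups did not overlap. CCDC88A ENST00000643265 stood at 50%, 18.2% and 36.4% against 80%, 63.6% and 71.4% (ratio change -0.79, SE 0.24, adjusted p = 0.382 by limma). AASS ENST00000358954 stood at 24.2%, 30.6% and 27.3% against 20%, 14.9% and 7.41% (ratio change 0.68, SE 0.25, adjusted p = 0.421 by limma). These groups did not overlap either. RBM6 ENST00000454079 stood at 275%, 275% and 200% against 129%, 133% and 175%, also apart, but its partner was below the filter and the ratio was not tested. The ratios of ATAD2, ASAP1, GART, TKT, HSPH1, PSMD7, PRR11 and RBM25 overlapped between the groups. The called transcripts were picked by their own difference between the groups, which favours a separation of the ratio too. How many of all pairs separate in this way was not counted, so these separations are descriptions only.

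**Figure D3:**
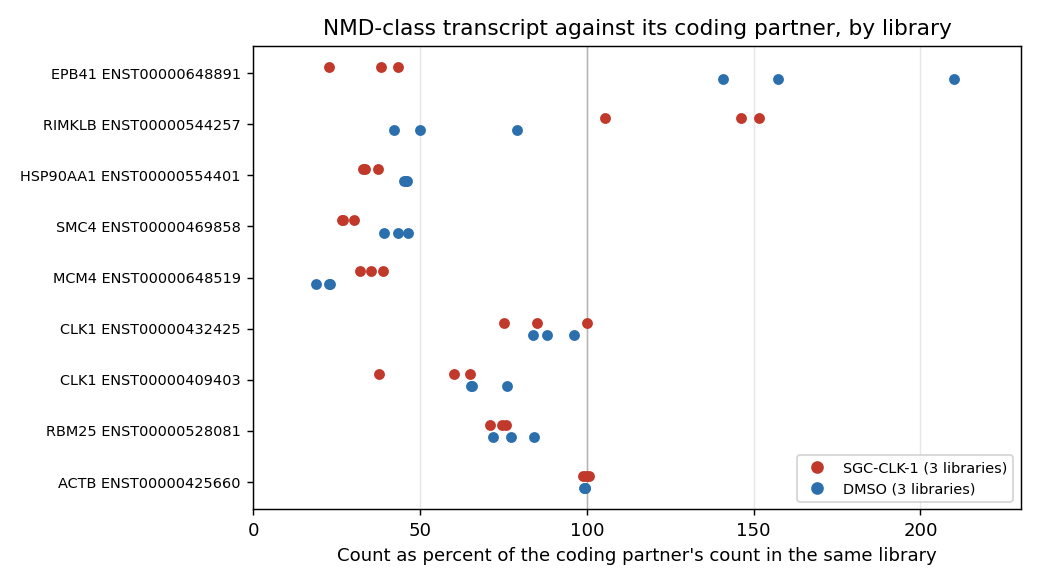
Count of 9 NMD-class transcripts as a percent of the coding partner's count, 1 point per library. The groups are apart for EPB41, RIMKLB, HSP90AA1, SMC4, MCM4 and, narrowly, CLK1 ENST00000409403, and overlap for CLK1 ENST00000432425, RBM25 and ACTB, where every library is near 100%.

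The size of the ratio changes varied with how far apart the 2 transcripts end. In the 134 pairs whose 3′ ends lay within 10 bases, the ratio changes had an SD of 0.18, and none reached 1 in size. The SD was 0.23 in the 155 pairs with ends 11 to 1000 bases apart and 0.38 in the 208 pairs with ends over 1000 bases apart. Of the 45 pairs with an unadjusted p under 0.05, 33 were in the last group, 8 in the middle one and 4 in the first. The median changes were 0.010, 0.0022 and -0.029, in order of distance. The NMD transcript's count was a median of 93.5%, 81.7% and 54.8% of the partner's in the same order. These are descriptions over pairs that share libraries, and whether they follow from reads counted for both transcripts was not tested.

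**Figure D4:**
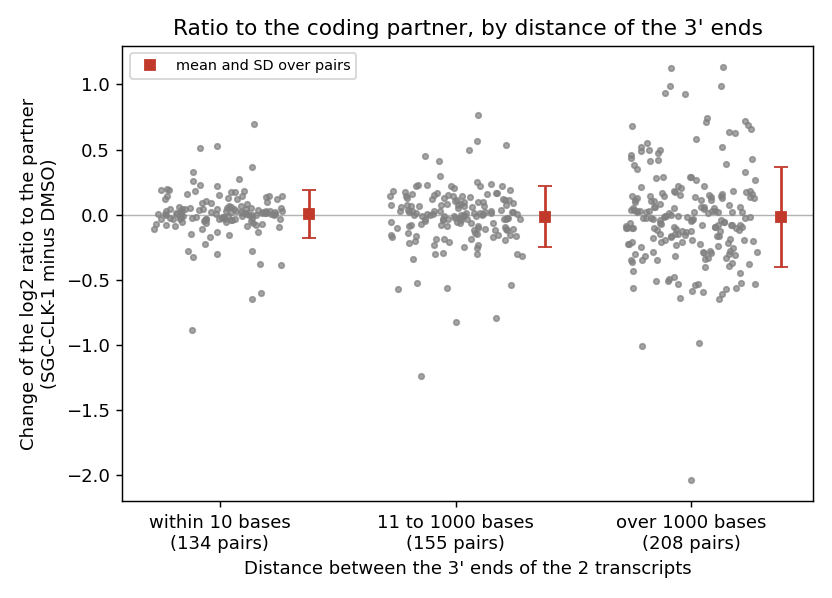
Change of the log2 ratio of NMD-class transcript to coding partner (SGC-CLK-1 minus DMSO) for 497 pairs, by the genomic distance between their 3′ ends, with 1 point per pair and the mean and SD over pairs in red. The spread is narrowest, with an SD of 0.18, where the ends lie within 10 bases.

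CLK1 itself, the kinase that the inhibitor is named for, had 2 called NMD transcripts. ENST00000432425 (chr2:200853081-200864656, minus strand) had 17, 8 and 15 counts with SGC-CLK-1 and 22, 36 and 25 with DMSO, or 25.2, 21.5 and 39.8 CPM against 53, 70.3 and 68.8. Its log2 fold change was -1.12 (SE 0.32, adjusted p = 0.0389 by edgeR). ENST00000409403 (chr2:200853113-200864662) had 13, 3 and 12 counts against 19, 28 and 17, a log2 fold change of -1.26 (SE 0.37, adjusted p = 0.0486). The partner ENST00000321356 differed by -1.03 (adjusted p = 0.0556). Relative to it, the exon-skipping transcript ENST00000432425 stood at 85%, 100% and 75% with SGC-CLK-1 and at 88%, 83.7% and 96.2% with DMSO, so the groups overlapped and the ratio changed by -0.04 (SE 0.12). For ENST00000409403 these shares were 65%, 37.5% and 60% against 76%, 65.1% and 65.4%, a ratio change of -0.23 (SE 0.15, adjusted p = 0.684 by limma). Both calls were lost when single libraries were left out, in all 6 fits for ENST00000432425 and in 5 of 6 for ENST00000409403.

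The list of SR factors and CLK kinases held 15 of the 1894 transcripts, from 10 of its 20 genes. Only 4 passed the filter on low counts, the 2 of CLK1, called lower, and 1 each of SRSF7 and TRA2A, which were not called. The 2 calls are of a single gene, and 2.1% of all transcripts tested were called lower. SRSF7 ENST00000425778, of an SR protein, whose stop codon lies in sequence that the partner lacks, had 80, 64.4 and 68.9 CPM against 89.2, 68.4 and 66 (log2 fold change 0.01, SE 0.26). TRA2A ENST00000538367, of a regulator that activates exons, had 123, 118 and 111 CPM against 174, 115 and 209 (log2 fold change -0.42, SE 0.24, adjusted p = 0.368 by edgeR). The groups overlapped in both. Their ratios to the partner changed by -0.08 and 0.01. The 11 untested transcripts, 3 of SRSF7 and others of SRSF1, SRSF2, SRSF3, SRSF6, TRA2B, CLK3 and CLK4, had 21 to 58 counts each and were below the filter.

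Of hnRNPs and other splicing regulators, 39 transcripts were included and 23 tested, and 1 was called, beside 3.95% of all transcripts. This was RBM25 ENST00000528081, of a factor associated with the U1 snRNP, with 198, 131 and 117 CPM against 311, 184 and 377 (log2 fold change -0.86, SE 0.25, adjusted p = 0.0406 by edgeR). The call was lost in 4 of the 6 fits that leave out 1 library. Its groups overlapped, since SGC-CLK-1 replicate 1 lay above DMSO replicate 2, and its partner was lower too (-0.78, adjusted p = 0.0488). The other 22 had log2 fold changes on both sides of 0, and the median over the 23 was -0.02. They ranged from -0.62 for SNRPB ENST00000474384, of a core protein of the spliceosomal snRNPs, to 0.44 for QKI ENST00000361758, of an RNA-binding regulator of splicing. The ratio to the partner had an unadjusted p under 0.05 in 2 of the 23, beside 10.3% of all pairs. U2AF1 ENST00000464750, of the subunit that reads the 3′ splice site, changed by 0.70 (SE 0.24), and RBM39 ENST00000338163, of a U2AF-related factor, by -0.53 (SE 0.18), both with an adjusted p of 0.397 by limma. The end of the U2AF1 transcript is shared with a near-identical annotated copy, so its count is uncertain.

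Ribosomal proteins and translation factors had 28 included transcripts and 18 tested, on a list of 64 genes that does not hold every ribosomal protein gene and leaves out RPS15A, described above. Of the 18 none was called (3.95% of all transcripts were), 1 had an unadjusted p under 0.05 (18% of all did) and the median log2 fold change was -0.10. That 1, chosen after its values were seen, was RPLP0 ENST00000549098, of the ribosomal stalk, with 456, 322 and 398 CPM against 571, 514 and 663 (log2 fold change -0.50, SE 0.20, adjusted p = 0.159 by edgeR). Its count lay between 87.6% and 93.4% of its partner's in the 6 libraries, and the log2 ratio changed by -0.06 (SE 0.03). Its 3′ end is shared with the pseudogene RPLP0P6.

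The factors that carry out NMD were compared as genes, from counts summed over the transcripts of each gene. Of 6344 genes tested with edgeR, 15 (0.236%) passed an adjusted p of 0.05 and 879 (13.9%) an unadjusted p of 0.05. Of 28 NMD and exon-junction factors, 21 were tested, none was called and 1 had an unadjusted p under 0.05. This was SMG1, the kinase that phosphorylates UPF1, with 181 counts in the deepest library and 97 and 101 in the other treated ones against 152, 212 and 152 (log2 fold change -0.62, SE 0.19, adjusted p = 0.151). The median over the 21 was 0.32, and over all genes -0.0012. The helicase UPF1 itself had 26 counts in all and was not tested. UPF2, which bridges UPF1 and the exon-junction complex, had a log2 fold change of 0.37 (SE 0.28), UPF3B, which binds that complex, of -0.74 (SE 0.36) and EIF4A3, its core helicase, of 0.64 (SE 0.42). Only 4 NMD-class transcripts of this list were included, 3 of MAGOHB and 1 of ACIN1, with 23 to 44 counts, and none was tested.

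Genes whose mRNAs are often used to read NMD activity were described in the same way. Of 24, 10 were tested and none was called, 3 had an unadjusted p under 0.05 (13.9% of all genes did) and the median was -0.09. DDIT3, a transcription factor of the stress response, had 13, 4 and 9 counts with SGC-CLK-1 and 20, 35 and 26 with DMSO (log2 fold change -1.80, SE 0.42, adjusted p = 0.0748 by edgeR). ATF4, which acts upstream of it, had 54, 25 and 11 counts against 74, 49 and 46 (log2 fold change -1.16, SE 0.36, adjusted p = 0.146). In these raw counts, which are not scaled for depth, all 3 treated libraries lay below the controls for DDIT3. For ATF4 the deepest library, SGC-CLK-1 replicate 1, lay within the range of the controls. The noncoding genes GAS5, ZFAS1, SNHG1, SNHG12 and SNHG15 were at 0 in every library. Among SR factor and CLK genes, 17 were tested and none called, with a median of -0.22. Of these 17, 6 had an unadjusted p under 0.05, CLK1, CLK4, SRSF3, SRSF11 and TRA2A with lower and SRSF1 with higher values with SGC-CLK-1, beside 13.9% of all genes. CLK1 had 69, 22 and 55 counts against 77, 130 and 91 (log2 fold change -1.20, SE 0.29, adjusted p = 0.0874).

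The share of all counts that fell on the NMD class differed little between the groups. It was 7.12%, 7.15% and 7.15% with SGC-CLK-1 and 6.94%, 6.94% and 7.02% with DMSO, so the groups did not overlap and their means were 0.178 percentage points apart. The 1894 transcripts with a summed count of 20 or more did not carry this difference, with 5.70%, 5.67% and 5.72% of counts against 5.64%, 5.68% and 5.84%. It lay in the 7438 NMD-class transcripts under that count, which held 1.42%, 1.49% and 1.43% against 1.30%, 1.25% and 1.18%. Transcripts of every class with a summed count under 20 held 13.6%, 14.1% and 13.7% against 12.5%, 12.1% and 11.6%. Coding transcripts under that count held a mean of 6.96% with SGC-CLK-1 and 6.08% with DMSO, and retained-intron transcripts 2.24% and 1.94%. Nor was the difference particular to the NMD class. Whole retained-intron transcripts held a mean of 8.81% with SGC-CLK-1 and 8.66% with DMSO. Transcripts of coding genes without a defined coding sequence held 4.42% and 4.17%, and long noncoding ones 0.828% and 0.758%. The groups did not overlap in these classes. They overlapped in coding transcripts, at 70.7% in both, and in processed pseudogenes. Identifiers without a match held 6.63% and 7.35%. These shares are sums over chosen sets of transcripts and were not tested.

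**Figure D5:**
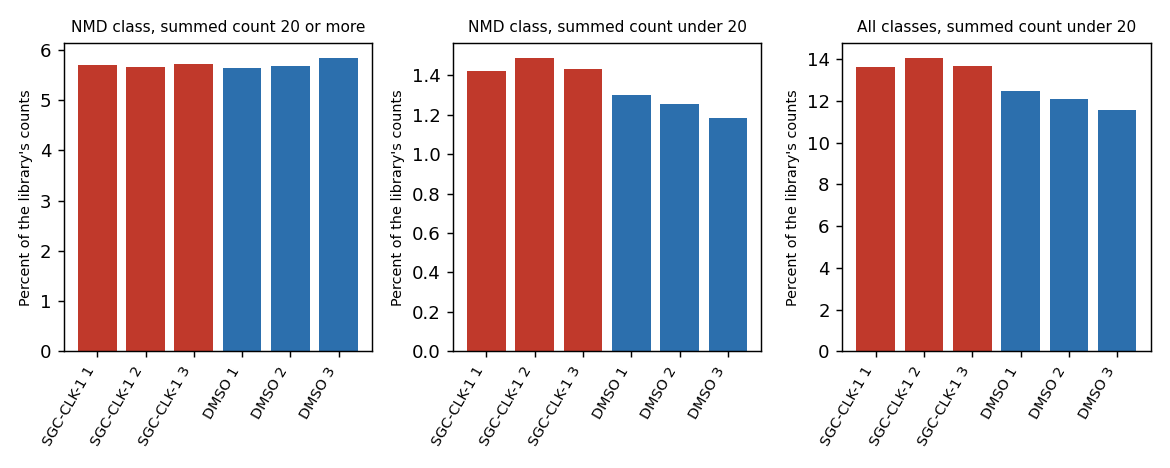
Percent of each library's counts on NMD-class transcripts with a summed count of 20 or more (left), on NMD-class transcripts under 20 (middle) and on transcripts of all classes under 20 (right), SGC-CLK-1 in red and DMSO in blue. The groups overlap on the left and are apart in the middle and on the right, at 1.42% to 1.49% against 1.18% to 1.30% in the middle.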

How the data were processed

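RNA of RM82 cells was copied to cDNA with a unique molecular identifier (UMI) at both ends. Per the study's methods the authors called bases from PromethION runs, mapped reads to human transcripts of hg38 with minimap2, keeping secondary alignments, and removed duplicates by UMI. The deposited values are raw UMI counts, with a table for each library. Which deduplication made these tables is not given in the sources used here, and the labels' extraction text describes an Illumina kit. A transcript that a library does not list was given 0.

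Identifiers without version were matched to GENCODE 44, built on the same assembly. Of 93530 identifiers 86362 matched, and the other 7168 held 7.00% of counts. Of the 1894 members, 1789 had the same version there. In R 4.3.3, edgeR 4.0.16 (filterByExpr with a minimum count of 10 and minimum total of 15, TMM, quasi-likelihood F-test, Benjamini-Hochberg adjustment, calls under 0.05) was fitted to transcripts and to gene sums. From 67.5% to 71.5% of each library's counts lay on tested transcripts, and the common biological coefficient of variation was 0.169. The log2 ratio of member to partner, with 2 added to each count, was tested with limma 3.58.1 (trend) over all pairs. Replicates varied beyond counting noise, with a chi-square of 1.37 to 3.15 per degree of freedom. Shared 3′ ends were found with minimap2 2.31.

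Named were the members past 0.05 in either test, the 5 with most counts, tested members of the lists of SR factors and CLK kinases, of other splicing regulators and of NMD factors (some by range), and 1 transcript on each side of the threshold, except for 1 called transcript that is not reported here. Names outside this rule are marked as chosen after their values were seen. The members, lists and this rule were chosen with earlier results of these data known. On simulated counts with 200 features changed by a fold of 4, edgeR recovered 99.5% of them among 7840 transcripts (6.57% of its calls were wrong) and 92% among 6344 genes (6.12% wrong), DESeq2 1.42.0 94% of the transcripts (0.529% wrong), limma 87% of the pairs (4.4% wrong) and diffSpliceDGE 79.5% among 5531 transcripts (17.6% wrong). Each feature was simulated separately, so the limma and diffSpliceDGE shares do not carry over to transcripts whose counts run together. Alternatives were other scalings, filters, prior counts, partners and tools, a replicate block and leaving out each library. Tables of the other experiments of the series were not analysed here.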

Additional observations from a re-analysis of the deposited data

How the results depend on the processing

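The 20 NMD transcripts past 0.05 became 6 (0 higher, 6 lower) among those with at least 10 counts in every library, a filter that keeps 307 and itself removed 14 of the 20, all 10 higher and 4 lower ones, and 3 (0 higher, 3 lower: HSP90AA1, SMC4 and PSMD7) with DESeq2, which gave no adjusted p to 14 of the 20, again all 10 higher and 4 lower ones. They became 30 (14 higher, 16 lower) with all 1894 tested and 18 (11 higher, 7 lower) with scaling by library size only. Leaving out 1 library at a time gave 8 to 24, with 4 to 15 higher and 4 to 9 lower, and 8 without SGC-CLK-1 replicate 2. The 5 transcripts of HSP90AA1, SMC4, ATAD2 (2) and MCM4 kept the call in all 6 such fits, and the other 15 lost it in at least 1. Those of ATAD2 and MCM4 passed the filter only through SGC-CLK-1, so their kept calls are no measure of stability. EPB41 lost it only without SGC-CLK-1 replicate 1. The cause was not tested.

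For the ratio to the partner, 0 NMD pairs passed 0.05 under the other prior count, filters and partner. With diffSpliceDGE 1 did (EPB41), and leaving out 1 library gave 0 to 1 (HSP90AA1 without SGC-CLK-1 replicate 1). Ratio changes that were never called turned sign. Both ATAD2 transcripts did with diffSpliceDGE (-0.014 for ENST00000517666 and -0.087 for ENST00000519124) and with the sum of all coding transcripts as partner (-0.11 and -0.084), and GART with that sum (-0.035). Without 1 library the ratio changes ran from -0.26 to 0.18 for ASAP1, from -0.0067 to 0.33 for ATAD2 ENST00000517666, from -0.11 to 0.39 for ATAD2 ENST00000519124, from -0.14 to 0.050 for CLK1 ENST00000432425, from -0.15 to 0.53 for GART, from -0.0032 to 0.14 for HSPH1 and from -0.042 to 0.22 for PRR11. The difference in NMD share was 0.133 percentage points of matched counts, -0.022 for the 1894 transcripts alone, and 0.164 to 0.206 without 1 library.

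Whether replicate numbers pair the libraries is not known. Deviations of same-numbered libraries correlated at 0.059, 0.093 and -0.0018, and those of differently numbered ones at -0.12 to 0.067. With the replicate block 27 NMD transcripts passed 0.05 (14 higher, 13 lower), 0 pairs and 0 NMD factors did. Calls over all features changed by more than 1.5 times as well. Of transcripts, 310 became 173 with the filter in every library, 113 with DESeq2, 101 without DMSO replicate 1, 81 without SGC-CLK-1 replicate 2 and 130 without SGC-CLK-1 replicate 3. Of genes, 15 became 64 with that filter, 28 by library size, 36 with the block and 1 to 6 in 5 of the fits without 1 library, with 21 in that without DMSO replicate 2. Depth limits the test, as 1326 of the 1894 were below the filter on low counts.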
